A study of Mus musculus with 14 samples.

Results

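The p53 target genes are a list of 32 mouse genes, made up of Trp53, which encodes p53, and 31 genes whose transcription p53 is known to raise. The list is given by gene name, with no threshold on a measured value. The files hold 31 of the 32 under an identifier, among 37620 gene identifiers shared by all 14 libraries, and Pvt1 was not analysed here. RNA was sequenced from mouse embryonic stem (ES) cells of strain C57BL/6 with mCherry at mir-290 and eGFP at mir-302, microRNA loci used as reporters, the first for naive and the second for primed pluripotency. In the first set of 10 libraries, 2 a medium, cells plated at low density were cultured for 5 days with L-proline (L-Pro/LIF, no dose given), in N2B27 to which 20 ng/ml activin A plus 12 ng/ml bFGF had been added (F/A), with 2i (the usual name for a MEK and GSK3 inhibitor pair, no dose given), with vitamin C at 500 µM (VitC/LIF), or without addition in serum and LIF (FBS/LIF). F/A held neither serum nor LIF as described. The second set was 4 single libraries of cells labelled positive for both reporters. Its L-Pro day 5 cells had 5 days of L-proline at 1 mM in serum and LIF, its cells of F/A day 3 and of F/A day 5 were given 20 ng/ml activin A with bFGF of no given dose, and its t0 cells, titled untreated, were kept in 100 µM vitamin C on top of serum and LIF. Comparisons with t0 therefore also set cells without added vitamin C against cells with it. All libraries come from the same dual reporter cells, and the labels name neither a number of clones nor separate cultures, so p-values measure the spread between libraries, which may be technical.

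p53 is a transcription factor that is kept scarce by Mdm2, a ubiquitin ligase whose own gene p53 switches on, so that the pair form a feedback loop. When DNA damage or other stress frees p53 from Mdm2, it raises genes that halt the cell cycle, start apoptosis, repair DNA and change metabolism. Mouse ES cells are known for abundant p53 with little of the G1 arrest that it brings to other cells, and after damage p53 lowers Nanog and drives them to differentiate. The level of p53 target mRNA is used as a readout of p53 activity, although most of these genes also answer to other factors.

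p53 binds a pair of 10-base motifs (the p53 consensus decamer, which reads the same on both strands). RefSeq promoter windows of build GRCm38.p6, from 250 bases before to 50 bases after a transcription start, were found for 23 of the 32 genes and numbered 35. The exact decamer was present in 13 of these windows (37.14%), against 8.36% of all 32851 windows of that length. A full pair, with up to 2 mismatches and up to 1 base between the decamers, was present in 7 windows (20.0%) of 7 genes, against 1.78% of all windows. Cdkn1a and Ccng1 are shown because they are cell cycle genes that rose with L-proline and in F/A, and the 250 bases before a start of each hold such a pair, marked by capitals. The Cdkn1a stretch lies at chr17:29090729-29090978 on the plus strand and belongs to 1 of 2 windows of this gene, and the Ccng1 stretch lies at chr11:40755287-40755536 on the minus strand.
Cdkn1a: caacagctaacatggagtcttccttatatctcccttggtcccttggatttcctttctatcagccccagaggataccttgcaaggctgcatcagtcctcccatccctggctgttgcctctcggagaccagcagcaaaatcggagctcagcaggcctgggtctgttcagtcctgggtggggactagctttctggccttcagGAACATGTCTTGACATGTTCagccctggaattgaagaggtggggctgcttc
Ccng1: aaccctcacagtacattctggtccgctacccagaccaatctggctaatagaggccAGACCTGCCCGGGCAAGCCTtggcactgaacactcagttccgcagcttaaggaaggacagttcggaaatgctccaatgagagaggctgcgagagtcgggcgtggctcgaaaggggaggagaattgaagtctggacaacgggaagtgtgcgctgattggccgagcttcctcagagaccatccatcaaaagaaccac
The other 5 pairs are printed alone, in capitals throughout, because their genes did not move alike. Polk rose with L-proline and in F/A, Bax, Gtse1 and Ckap2 fell in F/A, and Rps27l was not called. They lie at chr13:96519398-96519418 (Polk, minus strand), chr7:45467090-45467110 (Bax, minus strand), chr15:85859945-85859964 (Gtse1, plus strand), chr8:22186003-22186022 (Ckap2, minus strand) and chr9:66946296-66946315 (Rps27l, plus strand).
Polk: GAACTAGCCTCAAACTTATTC
Bax: AAGCATATCCCAGGCAAGCTT
Gtse1: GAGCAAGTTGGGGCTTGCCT
Ckap2: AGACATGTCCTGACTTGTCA
Rps27l: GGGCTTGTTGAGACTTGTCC
Among the 7 genes with a pair, 3 rose and 3 fell in F/A relative to FBS/LIF, where 24.4% of all genes rose and 22.0% fell. In L-Pro/LIF 3 of the 7 rose and none fell, where 13.7% of all genes rose and 10.3% fell. Among the 16 genes with a window and no pair, 6 rose and 2 fell in F/A, and 7 rose and 2 fell in L-Pro/LIF. A match describes letters in the window and is not evidence that p53 was bound.

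The first set held 17778399 to 26354444 mapped fragments a library, except F/A replicate 1 with 6937945, and the second set held 33162689 to 39711061 counts. The 8 ES cell markers summed to 1222 to 1306 CPM (counts scaled to library size) in L-Pro/LIF, 532 to 696 in F/A, 5478 to 5511 in 2i/LIF, 3868 to 3971 in VitC/LIF and 3830 to 4034 in FBS/LIF, and the 6 primed epiblast markers to 1179 to 1218, 1197 to 1407, 134 to 144, 565 to 590 and 711.4 to 711.6 CPM in the same order of media. The 12 fibroblast (feeder) markers summed to 42.0 to 46.0 CPM in L-Pro/LIF, 32.1 to 41.6 in F/A, 39.5 to 42.0 in 2i/LIF, 28.8 to 29.9 in VitC/LIF and 24.55 to 24.6 in FBS/LIF. Lum, Postn and Fap were at 0 in FBS/LIF and, with Col3a1, in 2i/LIF, as were Postn and Fap in VitC/LIF and Fap in F/A. Fbln1 had the most counts of the 12 in every library. Of 9 fibroblast markers tested, 6 rose and 1 fell in L-Pro/LIF relative to FBS/LIF, and 6 rose and none fell in F/A. In 2i/LIF 2 rose and 3 fell, and none was called in VitC/LIF. The 8 primitive endoderm markers summed to 61.1 to 66.3 CPM in L-Pro/LIF, 114 to 166 in F/A, 153 to 171 in 2i/LIF, 98.2 to 119.5 in VitC/LIF and 111 to 157 in FBS/LIF, and the 8 trophoblast markers to 47.9 to 52.0, 73.3 to 74.1, 52.0 to 53.8, 92.3 to 99.2 and 70.8 to 83.0 CPM. Lama1 made up most of the endoderm sum outside F/A, and single genes moved apart from the sums. In F/A relative to FBS/LIF, 5 of 8 primitive endoderm markers rose (Foxa2 most, by 5.22 on the log2 scale) and Lama1 fell, with a median of 2.19, while in L-Pro/LIF none rose and Lama1 fell. Of 7 trophoblast markers tested, 2 rose and 3 fell in F/A, over a range of -3.44 to 4.26, and 3 rose and 2 fell in L-Pro/LIF. These marker levels moved with the media, and their part in the results was not tested. In such bulk samples fewer cells of a type and less RNA per cell cannot be told apart.

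Many p53 targets rose and a few fell with L-proline and in F/A, and none was called with vitamin C. In L-Pro/LIF relative to FBS/LIF, 13 of the 31 genes rose and 2 fell, beside 13.7% of all 16033 genes tested that rose and 10.3% that fell (24.0% in either direction). The median log2 fold change was 0.30 over the 31 genes and 0.01 over all genes. With any 1 of its libraries left out, fewer genes were called higher in L-Pro/LIF, and Sesn1, Polk and Fas lost their call each time. In F/A relative to FBS/LIF 13 rose and 6 fell, beside 24.4% and 22.0% of all genes (46.4% in either direction), with medians of 0.36 and 0.05. The F/A count of lower genes was 2 (beside 11 higher) without FBS/LIF replicate 1, 4 without F/A replicate 1 and 8 without F/A replicate 2. With limma the F/A split was 16 higher and 3 lower. A call is an edgeR quasi-likelihood adjusted p under 0.05 over all genes tested, and log2 fold changes are given ± SE. Of all 31 genes, 28 were called in at least 1 of the 6 comparisons, and Trp53, Rrm2b and Rps27l in none. The matching share of all genes was not counted, and F/A relative to FBS/LIF alone called 46.4% of them.

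The direct comparison of L-proline with vitamin C called 14 genes higher and 4 lower, beside 16.8% and 13.0% of all genes (29.8% in either direction), with medians of 0.50 over the list and 0.02 over all genes. With any 1 of its 4 libraries left out, 10 to 12 were called higher and 2 lower. Vitamin C relative to FBS/LIF gave no call among the 31 genes with edgeR, and 9 had an unadjusted p under 0.05, beside 1800 of all 16033 genes. DESeq2 called 4 of them (1 higher, 3 lower), and limma, the unfiltered fit and the fit on unique hits called 1 each, lower. Of all genes 0.674% were called there, so the comparison held few calls of any kind. Its median was -0.19 over the list and -0.01 over all genes, and 6 of the 31 values were above 0, beside 7633 of all 16033. In 2i/LIF 5 genes rose and 4 fell relative to FBS/LIF, beside 12.5% and 17.9% of all genes (30.4% in either direction), with medians of -0.10 and -0.04. Cdkn1a, Sesn1, Ak1, Gdf15 and Ddb2 rose there, and Perp, Plk2, Pmaip1 and Eda2r fell. F/A relative to L-Pro/LIF called 3 higher and 4 lower, beside 11.1% and 10.9% of all genes (22.0% in either direction), with medians of -0.07 and -0.03. Cdkn1a, Zmat3 and Polk were the higher ones, and Bax, Bbc3, Trp53inp1 and Dyrk3 the lower ones. The count of 7 depended on single libraries: 0 were called when L-Pro/LIF replicate 1 was dropped and 1 when replicate 2 was, while 3 were called without F/A replicate 1 and 13 without F/A replicate 2. With limma the split was 4 higher and 1 lower. In 2i/LIF, in place of 9, 4 were called without 2i/LIF replicate 1 and 5 without FBS/LIF replicate 1, and RLE scaling gave 6 higher and 3 lower. The 4 comparisons with FBS/LIF share its libraries.

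With 2 libraries a medium, separation of groups is common in these data. Both libraries of one medium lay on the same side of both of the other for 26 of the 31 genes in L-Pro/LIF relative to FBS/LIF (64.8% of all genes), for 24 in F/A (72.0%), for 24 in 2i/LIF (68.1%) and for 19 in VitC/LIF (42.9%). The count was 26 in L-Pro/LIF relative to VitC/LIF (69.3%) and 17 in F/A relative to L-Pro/LIF (63.5%). All 68 called values were of this kind, which a call with 2 libraries a medium makes likely, so it is not separate support for the calls. The share among all called genes was not counted.

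**Figure D1:**
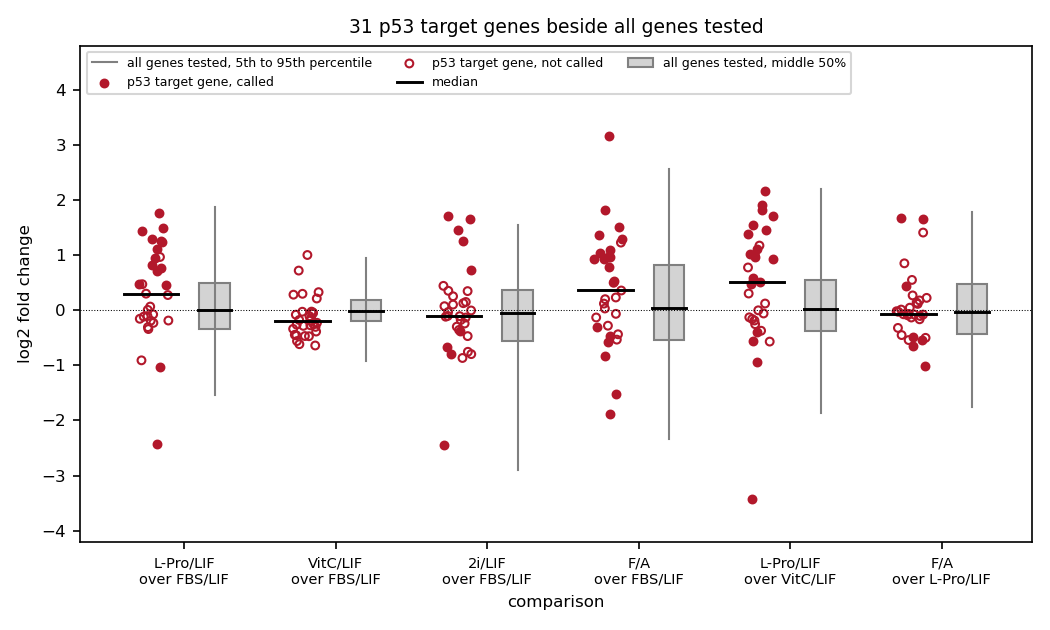
Log2 fold change (vertical axis) of each of the 31 p53 target genes in 6 comparisons of media, filled where called, beside grey boxes for all genes tested (middle 50%, with lines to the 5th and 95th percentile) and black bars for medians. The list's median lies above that of all genes for L-Pro/LIF and F/A over FBS/LIF and for L-Pro/LIF over VitC/LIF (0.30, 0.36 and 0.50), and below it for VitC/LIF over FBS/LIF (-0.19).

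**Figure D2:**
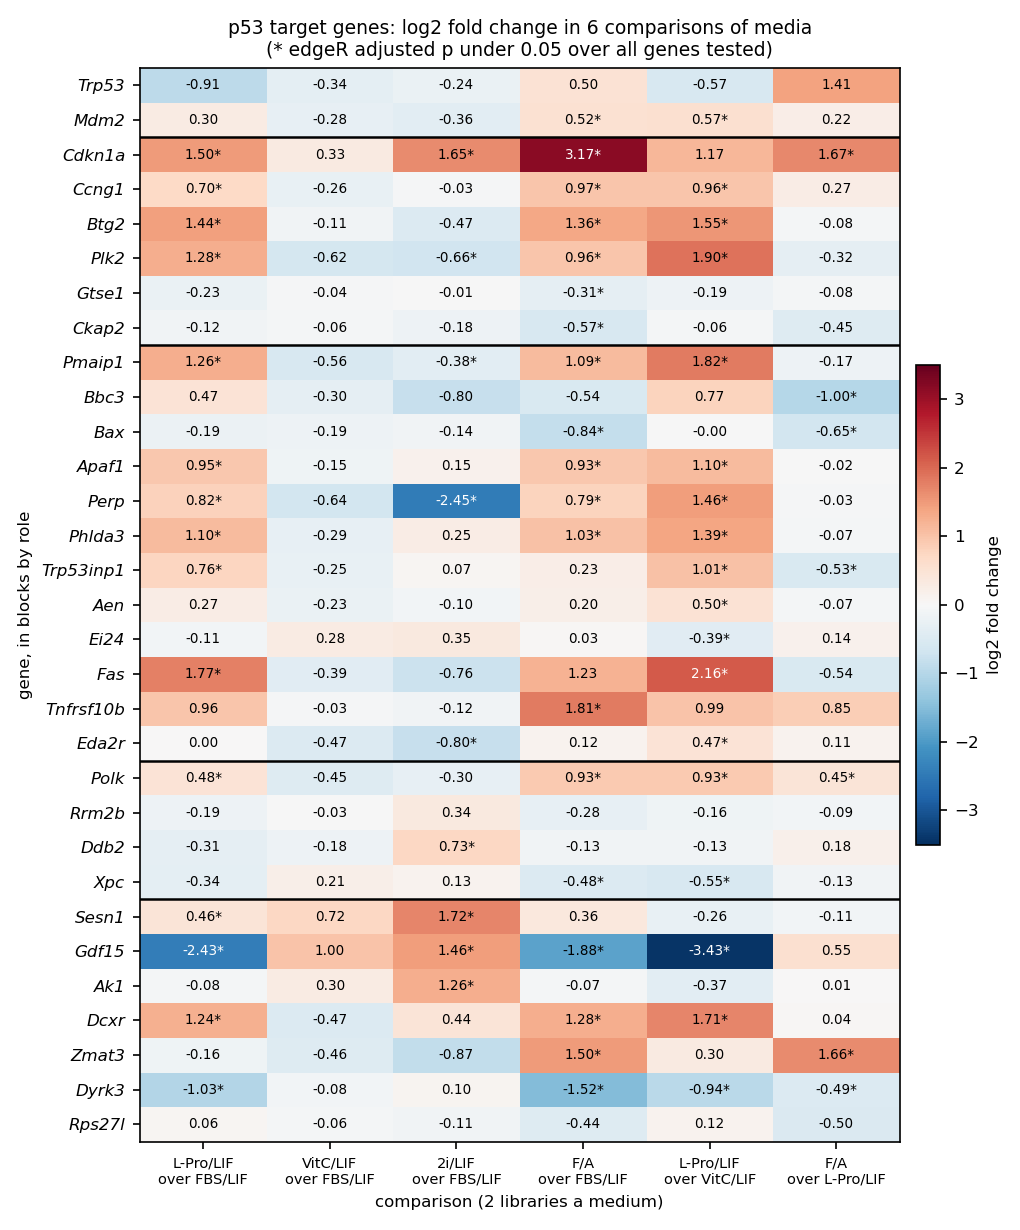
Log2 fold change of the 31 p53 target genes (rows, in blocks by role) in 6 comparisons of media (columns), with red for higher, blue for lower and a star for an adjusted p under 0.05. Cdkn1a, Ccng1, Btg2, Plk2, Pmaip1, Apaf1, Perp, Phlda3, Polk and Dcxr are starred as higher both in L-Pro/LIF and F/A over FBS/LIF, while Gdf15 and Dyrk3 are starred as lower in both.

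Trp53 itself was called in no comparison. It had 33.99 and 40.5 CPM in L-Pro/LIF, 135 and 63.3 CPM in F/A, 38.9 and 79.6 CPM in 2i/LIF, 58.2 and 52.5 CPM in VitC/LIF and 49.3 and 90.9 CPM in FBS/LIF. The libraries of F/A, 2i/LIF and VitC/LIF overlapped those of FBS/LIF. In L-Pro/LIF both libraries were below both of FBS/LIF in CPM, with a log2 fold change of -0.91 ± 0.44 (95% interval -2.03 to 0.21) that did not pass. In deposited expression (FPKM) the 2 media overlapped, at 18.33 and 23.34 in L-Pro/LIF and 17.77 and 42.78 in FBS/LIF. The separation in CPM therefore depends on the counts estimated from those values. Of the reads assigned to Trp53, 80.5% hit this gene alone, so its level also rests on how shared reads were divided. Mdm2, which marks p53 protein for degradation and is itself a target, had 198 and 233 CPM in L-Pro/LIF, 246 and 256 CPM in F/A, 128 and 145 CPM in 2i/LIF, 151 and 138 CPM in VitC/LIF and 169 and 181 CPM in FBS/LIF. Its F/A libraries stood above all others. It rose in F/A relative to FBS/LIF by 0.52 ± 0.12 (adjusted p = 0.00983) and in L-Pro/LIF relative to VitC/LIF by 0.57 ± 0.13 (adjusted p = 0.00872), while its L-Pro/LIF value relative to FBS/LIF was 0.30 ± 0.12 (adjusted p = 0.121). Without FBS/LIF replicate 1 the adjusted p in F/A was 0.0853, and without VitC/LIF or L-Pro/LIF replicate 2 that against VitC/LIF was 0.093 and 0.0864.

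Of the 6 genes of cell cycle and growth arrest, 4 rose both in L-Pro/LIF and F/A relative to FBS/LIF, namely Cdkn1a, Ccng1, Btg2 and Plk2. None of the 6 fell in L-Pro/LIF and 2 fell in F/A. Over all genes 13.7% rose and 10.3% fell in L-Pro/LIF, and 24.4% rose and 22.0% fell in F/A. Cdkn1a encodes p21, an inhibitor of cyclin-dependent kinases and the best known arrest gene under p53. It had 7.84 and 14.0 CPM in L-Pro/LIF, 44.9 and 25.1 CPM in F/A, 12.0 and 12.3 CPM in 2i/LIF, 3.75 and 5.96 CPM in VitC/LIF and 3.00 and 4.73 CPM in FBS/LIF. Both F/A libraries lay above all others, the 2i/LIF libraries lay between the L-Pro/LIF ones, and the VitC/LIF and FBS/LIF libraries overlapped. It rose by 1.497 ± 0.40 in L-Pro/LIF (adjusted p = 0.0257), by 3.17 ± 0.41 in F/A (adjusted p = 0.000507) and by 1.65 ± 0.40 in 2i/LIF (adjusted p = 0.0138), each relative to FBS/LIF. F/A was also above L-Pro/LIF, by 1.67 ± 0.38 (adjusted p = 0.0201). The F/A call against FBS/LIF held without each library in turn (1 left out at a time), with values from 2.69 to 3.51. The L-Pro/LIF call did not: its adjusted p was 0.158 when FBS/LIF replicate 1 was dropped, 0.162 when L-Pro/LIF replicate 2 was, and 0.0517 with limma. The 2i/LIF call was lost in 3 of 4 such fits (adjusted p up to 0.0909), and that of F/A over L-Pro/LIF in 2 of 4 (adjusted p up to 0.13).

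Ccng1, cyclin G1, which brings a phosphatase to Mdm2, averaged 704.7 ± 10.3 CPM in L-Pro/LIF and 848 ± 84.1 CPM in F/A, against 433.5 ± 34.8 CPM in FBS/LIF (SD, n = 2 each). It rose by 0.70 ± 0.12 in L-Pro/LIF and by 0.97 ± 0.12 in F/A, and was 0.96 ± 0.12 higher in L-Pro/LIF than in VitC/LIF. Without L-Pro/LIF replicate 1 its adjusted p against FBS/LIF was 0.0537. Btg2, an antiproliferative regulator of transcription and mRNA decay that growth factors also induce as an immediate early gene, had 91.9 and 107 CPM in L-Pro/LIF, 78.9 and 109 CPM in F/A, 24.1 and 28.8 CPM in 2i/LIF, 31.8 and 36.0 CPM in VitC/LIF and 37.8 and 35.4 CPM in FBS/LIF. All 4 libraries of L-Pro/LIF and F/A were above all 6 of the other media. Its log2 fold change was 1.44 ± 0.18 in L-Pro/LIF (adjusted p = 0.000688) and 1.36 ± 0.18 in F/A (adjusted p = 0.000489). Plk2, a polo-like kinase of centriole duplication and also an immediate early gene, had 188 and 219.5 CPM in L-Pro/LIF, 138 and 188 CPM in F/A, 55.1 and 50.5 CPM in 2i/LIF, 57.1 and 51.9 CPM in VitC/LIF and 92.9 and 74.3 CPM in FBS/LIF. The same 4 libraries were again the highest, and the 2i/LIF and VitC/LIF libraries were below those of FBS/LIF. It rose by 1.28 ± 0.18 in L-Pro/LIF and by 0.96 ± 0.18 in F/A, and its value in 2i/LIF was -0.66 ± 0.18 (adjusted p = 0.0209, and up to 0.15 without FBS/LIF replicate 1). Of the 14 other immediate early and ERK feedback genes, 6 rose and 2 fell in L-Pro/LIF, 6 rose and 4 fell in F/A, and 1 rose and 9 fell in 2i/LIF. That holds for the levels of Btg2 and of Plk2.

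The other genes of this block, Gtse1 and Ckap2, encode microtubule and spindle proteins that dividing cells make. Gtse1 averaged 130.2 ± 3.42 CPM in F/A against 161.5 ± 4.75 CPM in FBS/LIF and fell by 0.31 in log2 units (SE 0.10, adjusted p = 0.0317). Ckap2 averaged 161 ± 32.6 CPM in F/A against 239.5 ± 17.0 CPM in FBS/LIF and fell by 0.57 (SE 0.15, adjusted p = 0.0159). Both calls were absent from the limma fit, with an adjusted p of 0.403 and 0.0619, and leaving out 1 library lost Gtse1 in 3 of 4 fits (adjusted p 0.0604 to 0.141) and Ckap2 without FBS/LIF replicate 1 (0.0986). Neither gene was called in L-Pro/LIF, VitC/LIF or 2i/LIF.

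**Figure D3:**
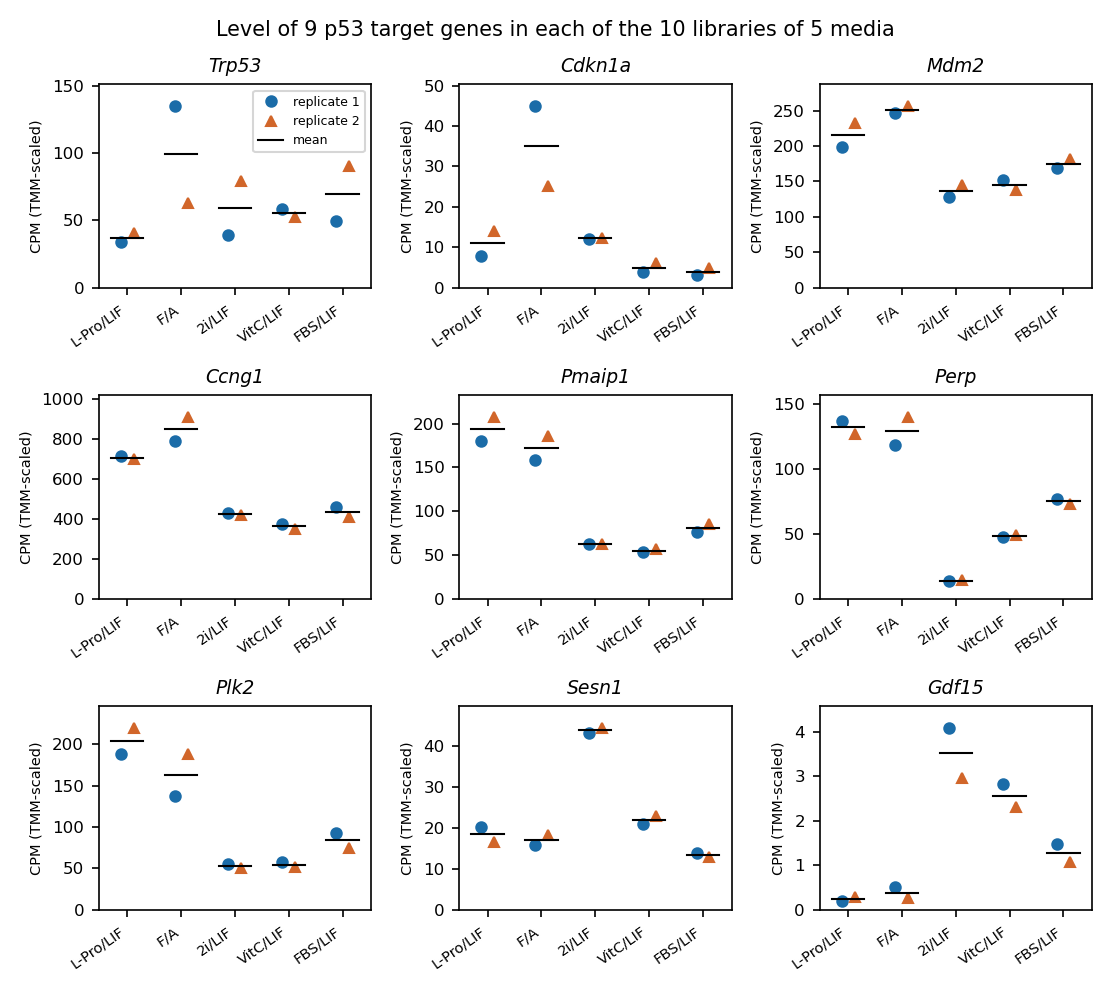
CPM (vertical axis, TMM-scaled, from 0) of 9 p53 target genes in each of the 10 libraries of 5 media, with circles for replicate 1, triangles for replicate 2 and bars for the mean of each medium. Pmaip1, Perp and Plk2 are higher in every L-Pro/LIF and F/A library than in any other, Perp is lowest in 2i/LIF, Sesn1 is highest in 2i/LIF, and Gdf15 is under 1 CPM in L-Pro/LIF and F/A.

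Of the 12 genes of cell death, 6 rose and none fell in L-Pro/LIF, and 5 rose and 1 fell in F/A, relative to FBS/LIF. Of all genes 13.7% rose and 10.3% fell in L-Pro/LIF, and 24.4% rose and 22.0% fell in F/A. Pmaip1, Perp, Phlda3 and Apaf1 rose in both media. Trp53inp1 and Fas were called in L-Pro/LIF and not in F/A, and Tnfrsf10b (higher) and Bax (lower) in F/A and not in L-Pro/LIF. Pmaip1 encodes Noxa, a BH3-only protein that sets off mitochondrial apoptosis by binding Mcl1. It had 179.8 and 208 CPM in L-Pro/LIF, 159 and 186 CPM in F/A, 62.0 and 62.7 CPM in 2i/LIF, 52.8 and 56.9 CPM in VitC/LIF and 76.1 and 85.6 CPM in FBS/LIF. All 4 libraries of L-Pro/LIF and F/A were above the other 6. It rose by 1.26 ± 0.13 in L-Pro/LIF (adjusted p = 0.000238) and 1.09 ± 0.12 in F/A (adjusted p = 0.000245), and L-Pro/LIF stood 1.82 ± 0.13 above VitC/LIF (adjusted p = 2.44e-05). Its value in 2i/LIF was -0.38 ± 0.12, a call with an adjusted p that rounds to 0.05 and that 8 of 10 alternatives lost.

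Bbc3 encodes Puma, another BH3-only protein, and it did not move like Pmaip1. It had 25.6 and 24.8 CPM in L-Pro/LIF, 7.99 and 16.6 CPM in F/A, 8.96 and 12.0 CPM in 2i/LIF, 13.1 and 16.4 CPM in VitC/LIF and 20.3 and 16.1 CPM in FBS/LIF. L-Pro/LIF was the highest medium and the F/A and FBS/LIF libraries overlapped. The only call was F/A relative to L-Pro/LIF, at -1.005 ± 0.31 (adjusted p = 0.0493), but it was -0.61 without F/A replicate 1 (adjusted p = 0.157) and -1.75 without F/A replicate 2 (adjusted p = 0.00308), and leaving out either L-Pro/LIF library lost the call (adjusted p 0.126 and 0.184). Bax, the protein that opens the outer mitochondrial membrane, had 137 and 129.6 CPM in L-Pro/LIF, 69.9 and 100.0 CPM in F/A, 140.1 and 137 CPM in 2i/LIF, 139 and 129 CPM in VitC/LIF and 159 and 146 CPM in FBS/LIF. The F/A libraries were the lowest of all, and Bax fell there by 0.84 in log2 units relative to FBS/LIF (SE 0.16, adjusted p = 0.00342). In L-Pro/LIF its value relative to FBS/LIF was not called, with a 95% interval of -0.60 to 0.21 on the log2 scale. Apaf1, the scaffold on which cytochrome c activates caspase 9, averaged 167 ± 1.08 CPM in L-Pro/LIF and 164 ± 3.81 CPM in F/A, against 86.0 ± 1.46 CPM in FBS/LIF (SD, n = 2 each). It rose by 0.95 ± 0.09 in L-Pro/LIF and by 0.93 ± 0.09 in F/A, and by 1.10 ± 0.09 in L-Pro/LIF relative to VitC/LIF, and these calls held under every alternative tried.

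Perp, a membrane protein of p53-induced death that is also a part of desmosomes, had 137 and 127 CPM in L-Pro/LIF, 119 and 139.6 CPM in F/A, 13.1 and 14.2 CPM in 2i/LIF, 47.2 and 48.7 CPM in VitC/LIF and 76.7 and 72.9 CPM in FBS/LIF. No 2 media overlapped except L-Pro/LIF and F/A, and 2i/LIF was far below the rest. It rose by 0.82 ± 0.11 in L-Pro/LIF and by 0.79 ± 0.11 in F/A, and fell by 2.45 in 2i/LIF (SE 0.12, adjusted p = 4.81e-06). In VitC/LIF its value was -0.64 ± 0.11 with an adjusted p of 0.0515. Phlda3, which blocks the recruitment of AKT to the membrane, had 87.3 and 86.2 CPM in L-Pro/LIF, 71.1 and 94.0 CPM in F/A, 50.9 and 45.4 CPM in 2i/LIF, 34.5 and 31.8 CPM in VitC/LIF and 48.4 and 32.5 CPM in FBS/LIF. The 4 libraries of L-Pro/LIF and F/A were the highest. It rose by 1.10 ± 0.20 in L-Pro/LIF (adjusted p = 0.00489) and 1.03 ± 0.20 in F/A (adjusted p = 0.0038). Trp53inp1, a nuclear protein of apoptosis and autophagy, had 660.1 and 636 CPM in L-Pro/LIF, 448 and 448 CPM in F/A, 387 and 416 CPM in 2i/LIF, 331 and 312 CPM in VitC/LIF and 386 and 378 CPM in FBS/LIF. It was highest with L-proline, 0.76 ± 0.11 above FBS/LIF (adjusted p = 0.00141), and F/A was -0.53 ± 0.11 relative to L-Pro/LIF (adjusted p = 0.0129, and up to 0.0971 with 1 library left out).

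The death receptors of the list, Fas, Tnfrsf10b (a TRAIL receptor) and Eda2r (the ectodysplasin A2 receptor), differed in their calls. Fas was scarce at 1.47 and 1.11 CPM in L-Pro/LIF, 0.507 and 1.15 CPM in F/A, 0.212 and 0.224 CPM in 2i/LIF, 0.221 and 0.347 CPM in VitC/LIF and 0.324 and 0.422 CPM in FBS/LIF, which rests on 32 and 28 estimated counts in L-Pro/LIF and 7 and 9 in FBS/LIF. It rose by 1.77 ± 0.50 in L-Pro/LIF (adjusted p = 0.0348), a call that was lost in each fit with 1 library left out (adjusted p 0.0973 to 0.205) and in DESeq2 (0.102). Tnfrsf10b had 20.8 and 27.0 CPM in L-Pro/LIF, 60.2 and 26.6 CPM in F/A, 10.2 and 12.3 CPM in 2i/LIF, 10.5 and 13.5 CPM in VitC/LIF and 11.2 and 13.3 CPM in FBS/LIF. F/A replicate 1 was more than 2-fold above its partner. Tnfrsf10b rose in F/A by 1.81 ± 0.35 (adjusted p = 0.00358), and by 1.11 without F/A replicate 1 (adjusted p = 0.00796). Its L-Pro/LIF libraries also lay above both of FBS/LIF, without a call, as did the F/A libraries of Fas. Neither gene was called in F/A relative to L-Pro/LIF, so a different pattern of these 2 genes was not shown. Eda2r had 128 and 124 CPM in L-Pro/LIF, 133 and 140.1 CPM in F/A, 70.8 and 73.8 CPM in 2i/LIF, 92.8 and 89.1 CPM in VitC/LIF and 133 and 119 CPM in FBS/LIF. It fell by 0.80 in 2i/LIF (SE 0.10, adjusted p = 0.000482), and its value in L-Pro/LIF was not called, with a 95% interval of -0.25 to 0.26. Aen, a nuclease that digests DNA in dying cells, and Ei24, a protein of the endoplasmic reticulum, were called in 1 comparison each, L-Pro/LIF over VitC/LIF, at 0.50 ± 0.12 and -0.39 ± 0.12. Both calls were lost in each fit with 1 library left out.

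Of the 4 genes of DNA repair and nucleotide supply, Polk moved with L-proline and in F/A. Polk is a polymerase that copies past damaged bases, and it had 32.5 and 32.7 CPM in L-Pro/LIF, 48.3 and 40.8 CPM in F/A, 18.2 and 19.8 CPM in 2i/LIF, 17.5 and 16.8 CPM in VitC/LIF and 22.3 and 24.5 CPM in FBS/LIF. F/A was highest and L-Pro/LIF next, with no overlap between them or with the other media. It rose by 0.93 ± 0.12 in F/A (adjusted p = 0.000567) and by 0.48 ± 0.12 in L-Pro/LIF (adjusted p = 0.0219), and the second call was lost in each fit with 1 library left out (adjusted p 0.0559 to 0.145). Ddb2, which finds ultraviolet damage, had 6.01 and 6.76 CPM in L-Pro/LIF, 7.23 and 7.20 CPM in F/A, 14.7 and 11.6 CPM in 2i/LIF, 7.67 and 6.30 CPM in VitC/LIF and 8.14 and 7.69 CPM in FBS/LIF. It rose in 2i/LIF by 0.73 ± 0.20 (adjusted p = 0.0219; up to 0.161 without 2i/LIF replicate 1). Its exons overlap those of Acp2 on the opposite strand, and without a stated strand setting their reads cannot be told apart. Xpc, which starts nucleotide excision repair, averaged 25.75 ± 3.60 CPM in F/A and 28.4 ± 2.09 CPM in L-Pro/LIF, against 36.0 ± 1.46 CPM in FBS/LIF and 41.7 ± 1.10 CPM in VitC/LIF (SD, n = 2 each). It fell by 0.48 in F/A relative to FBS/LIF (adjusted p = 0.0165; 0.0613 without F/A replicate 1 and 0.093 without FBS/LIF replicate 1) and by 0.55 in L-Pro/LIF relative to VitC/LIF (adjusted p = 0.0114, and 0.0534 to 0.102 with 1 library left out). Rrm2b, the ribonucleotide reductase subunit that p53 induces, ranged from 12.05 to 20.4 CPM over the 10 libraries and had no call.

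The 7 remaining genes, of metabolism, signalling and other roles, included both of the genes that fell with L-proline. Gdf15, a secreted stress hormone of the TGF-beta family that the factor ATF4 also induces, had 0.183 and 0.277 CPM in L-Pro/LIF, 0.507 and 0.250 CPM in F/A, 4.08 and 2.97 CPM in 2i/LIF, 2.81 and 2.31 CPM in VitC/LIF and 1.48 and 1.08 CPM in FBS/LIF. Its estimated counts in L-Pro/LIF were 4 and 7 and those in F/A were 4 and 5, against 32 and 23 in FBS/LIF. The libraries of L-Pro/LIF and F/A overlapped each other and lay below all others. It fell by 2.43 in L-Pro/LIF (SE 0.45, adjusted p = 0.00543) and by 1.88 in F/A (SE 0.47, adjusted p = 0.0123), rose by 1.46 ± 0.38 in 2i/LIF (adjusted p = 0.0195), and fell by 3.43 in L-Pro/LIF relative to VitC/LIF (SE 0.45, adjusted p = 0.000653). The F/A and 2i/LIF calls were lost without FBS/LIF replicate 1 among others (adjusted p up to 0.0691 and 0.132). On log2(FPKM + 1) in limma its values shrank to -0.75, -0.57, 0.85 and -1.33 and stayed called. Of the 9 ATF4 response genes, 1 rose and 5 fell in L-Pro/LIF, 2 rose and 1 fell in F/A, and 1 rose and 3 fell in 2i/LIF, relative to FBS/LIF. Chac1 and Trib3 had the largest falls in L-Pro/LIF, at -2.10 ± 0.27 and -1.99 ± 0.13, and Asns was highest in 2i/LIF at 1.97 ± 0.15. Their part in the level of Gdf15 was not tested.

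Dyrk3, a kinase that dissolves stress granules and other condensates, had 28.1 and 29.2 CPM in L-Pro/LIF, 19.7 and 21.1 CPM in F/A, 63.9 and 61.3 CPM in 2i/LIF, 54.5 and 55.7 CPM in VitC/LIF and 60.8 and 56.0 CPM in FBS/LIF. All 6 libraries of 2i/LIF, VitC/LIF and FBS/LIF lay above those of L-Pro/LIF, and F/A was the lowest. It fell by 1.03 in L-Pro/LIF (SE 0.10, adjusted p = 0.000264) and by 1.52 in F/A (SE 0.11, adjusted p = 1.78e-05). Dcxr, which reduces sugars and dicarbonyls, moved the other way, with 22.1 and 18.5 CPM in L-Pro/LIF, 17.6 and 24.1 CPM in F/A, 12.7 and 10.7 CPM in 2i/LIF, 5.52 and 6.88 CPM in VitC/LIF and 9.25 and 7.97 CPM in FBS/LIF. It rose by 1.24 ± 0.21 in L-Pro/LIF (adjusted p = 0.00354) and 1.28 ± 0.21 in F/A (adjusted p = 0.00175). Zmat3, a zinc finger protein that binds RNA, had 43.5 and 58.4 CPM in L-Pro/LIF, 212 and 111 CPM in F/A, 31.2 and 31.1 CPM in 2i/LIF, 35.3 and 47.4 CPM in VitC/LIF and 40.2 and 73.5 CPM in FBS/LIF. It rose in F/A by 1.501 ± 0.36 (adjusted p = 0.00949), and without F/A replicate 1 by 0.96 with an adjusted p of 0.0591, or 0.064 without FBS/LIF replicate 1. In L-Pro/LIF its value was -0.16 ± 0.35, and the libraries overlapped those of FBS/LIF.

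Sesn1 and Ak1 were highest in 2i/LIF. Sesn1, a sestrin that restrains mTORC1 when amino acids run short, had 20.3 and 16.6 CPM in L-Pro/LIF, 15.8 and 18.2 CPM in F/A, 43.3 and 44.4 CPM in 2i/LIF, 20.98 and 23.0 CPM in VitC/LIF and 13.9 and 12.8 CPM in FBS/LIF. It rose by 1.72 ± 0.14 in 2i/LIF (adjusted p = 4.99e-05), and by 0.46 ± 0.14 in L-Pro/LIF (adjusted p = 0.0417), a call that 8 of 10 alternatives lost. Ak1, an adenylate kinase, had 41.0 and 38.0 CPM in L-Pro/LIF, 31.8 and 47.4 CPM in F/A, 102 and 97.5 CPM in 2i/LIF, 53.3 and 49.1 CPM in VitC/LIF and 42.0 and 41.4 CPM in FBS/LIF. It rose by 1.26 ± 0.17 in 2i/LIF (adjusted p = 0.00077). Rps27l, a ribosomal protein-like gene under p53, ranged from 183 to 381 CPM and had no call. Per length, in FPKM, Rps27l was the highest of the list with a median of 1068 over the 10 libraries, followed by Bax with 189 and Ccng1 with 128, while Gdf15 and Fas were the lowest with 0.97 and 0.328.

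The second set asked the same of single libraries, with no replicate check. In L-Pro day 5 relative to t0, 17 of the 31 genes were past 2-fold higher and 2 past 2-fold lower, beside 20.1% and 15.4% of all 14726 genes with at least 1 CPM in any library (35.5% in either direction), with medians of 1.27 over the list and 0 over all genes. In F/A day 3 relative to t0, 14 were past 2-fold higher and 2 lower, beside 17.9% and 13.2% (31.1% in either direction), with medians of 0.80 and 0.01. In F/A day 5 relative to t0, 17 were higher and 4 lower, beside 20.7% and 16.7% (37.5% in either direction), with medians of 1.16 and -0.01. F/A day 5 relative to F/A day 3 had 3 higher and 1 lower, beside 9.41% and 11.2% (20.6% in either direction). The 3 comparisons with t0 share that library. Here the fibroblast markers summed to 103 CPM in L-Pro day 5, 50.2 in F/A day 3, 36.6 in F/A day 5 and 73.7 in t0, and the ES cell markers to 1293, 1595, 969 and 5038 CPM.

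The largest differences of L-Pro day 5 from t0 were in Perp and Plk2. Perp had 219 CPM in L-Pro day 5, 49.5 CPM in F/A day 3 and 206 CPM in F/A day 5, against 8.48 CPM in t0 (8627 counts in L-Pro day 5 and 283 in t0), a log2 fold change of 4.68 for L-Pro day 5 over t0. Plk2 had 268 CPM in L-Pro day 5, 108 CPM in F/A day 3 and 194 CPM in F/A day 5, against 12.9 CPM in t0, a log2 fold change of 4.36 for L-Pro day 5 over t0. In both genes day 3 of F/A lay between t0 and day 5. Pmaip1 had 262 CPM in L-Pro day 5, 396 CPM in F/A day 3 and 262 CPM in F/A day 5, against 39.2 CPM in t0, so that F/A was highest at day 3. Cdkn1a had 93.5 CPM in L-Pro day 5, 119.6 CPM in F/A day 3 and 206 CPM in F/A day 5, against 29.7 CPM in t0, with log2 fold changes over t0 of 1.65 in L-Pro day 5 and 2.79 in F/A day 5. Its level was above t0 at F/A day 3 and higher again at day 5, and the same order held for Mdm2 with 295 CPM in L-Pro day 5, 211 CPM in F/A day 3 and 367 CPM in F/A day 5, against 107 CPM in t0. Btg2 had 96.9 CPM in L-Pro day 5, 115 CPM in F/A day 3 and 134 CPM in F/A day 5, against 14.7 CPM in t0 and reached most of its F/A day 5 level by day 3.

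Phlda3 had 100.5 CPM in L-Pro day 5, 41.2 CPM in F/A day 3 and 108 CPM in F/A day 5, against 17.3 CPM in t0, and the genes past 2-fold between F/A days were Perp, Phlda3 and Ak1 as higher and Ddb2 as lower. Dcxr had 24.96 CPM in L-Pro day 5, 30.2 CPM in F/A day 3 and 38.2 CPM in F/A day 5, against 4.71 CPM in t0, and Ccng1 had 738 CPM in L-Pro day 5, 715 CPM in F/A day 3 and 766 CPM in F/A day 5, against 168 CPM in t0, each far above t0 in all 3 treated libraries. Apaf1 (2.00 in L-Pro day 5), Polk (1.80), Tnfrsf10b (1.90), Eda2r (1.59), Bbc3 (1.35), Trp53inp1 (1.27) and Aen (1.18) were also past 2-fold higher there on the log2 scale. Trp53 had 311 CPM in L-Pro day 5, 256 CPM in F/A day 3 and 244 CPM in F/A day 5, against 376 CPM in t0, under 2-fold from t0 in every library. On the lower side Gdf15 had 6 counts in L-Pro day 5, 23 in F/A day 3 and 12 in F/A day 5, against 87 in t0. That is 0.152 CPM in L-Pro day 5 (95% Poisson limits 0.0559 to 0.331) and 0.36 CPM in F/A day 5 (0.186 to 0.63), against 2.61 CPM in t0 (2.09 to 3.22). Sesn1 had 9.89 CPM in L-Pro day 5, 15.4 CPM in F/A day 3 and 12.2 CPM in F/A day 5, against 27.7 CPM in t0, also past 2-fold lower in L-Pro day 5 and F/A day 5. Fas had 76 counts in L-Pro day 5, 34 in F/A day 3 and 31 in F/A day 5, against 4 in t0. The limits cover counting error only.

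The 2 sets share no library, so the direction of each gene could be set side by side. Of the 13 genes that rose in L-Pro/LIF relative to FBS/LIF, 12 were past 2-fold higher in L-Pro day 5 relative to t0, and the exception was Sesn1 at -1.48. Of all genes called higher there and kept in the second set, 68.2% (1460 of 2141) were past 2-fold higher. Of the 2 that fell, Gdf15 was past 2-fold lower and Dyrk3 was at -0.65, beside 55.6% past 2-fold lower among all genes that fell. All 14 genes that rose in L-Pro/LIF relative to VitC/LIF, the comparison whose second medium also held vitamin C, were past 2-fold higher, beside 69.0% of all genes that rose. Of the 4 that fell, Gdf15 was past 2-fold lower and Xpc, Ei24 and Dyrk3 were not, beside 57.7% past it among all genes that fell. Of the 13 genes that rose in F/A relative to FBS/LIF, 11 were past 2-fold higher at day 3 and 12 at day 5, with Zmat3 short of it at both (0.37 and 0.90) and Mdm2 at day 3 (0.98). Over all genes that rose in F/A these shares were 42.1% at day 3 and 58.5% at day 5. Of the 6 that fell in F/A, 2 were past 2-fold lower at day 3 and 3 at day 5, and Bax, with log2 fold changes of 0.12 and -0.07 relative to t0, was among the rest. Over all genes that fell the shares were 29.6% and 42.2%. Of the 16 genes with no call in L-Pro/LIF over FBS/LIF, 5 (Mdm2, Bbc3, Eda2r, Aen and Tnfrsf10b) were past 2-fold higher in L-Pro day 5. Of all genes, called or not, 20.1% were past 2-fold higher there, and the share among those not called was not counted.

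**Figure D4:**
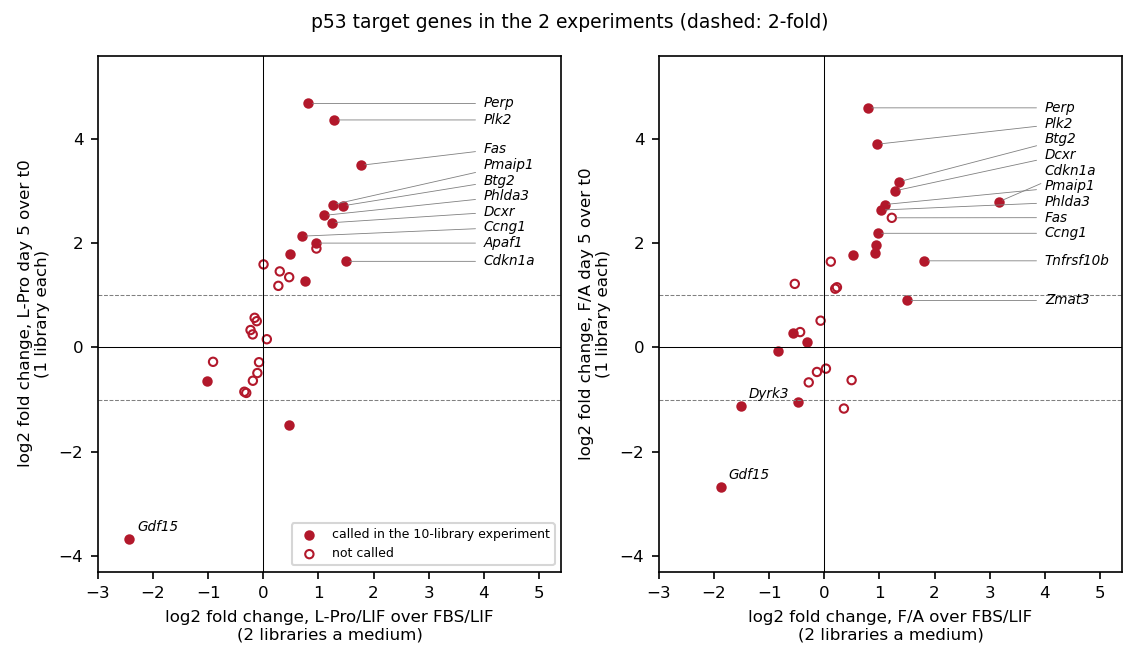
Log2 fold change of each p53 target gene in single libraries over t0 (vertical axis) against its log2 fold change over FBS/LIF in the media with 2 libraries (horizontal axis), for L-proline (left) and F/A at day 5 (right), filled where called on the horizontal axis and with dashed lines at 2-fold. In the left panel 12 of the 13 genes called higher lie above the upper dashed line, and Gdf15 is lowest on both axes in both panels.

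Other genes of the p53 pathway, listed by role, did not all follow. Of 19 genes that control p53 (kinases, acetylases, ligases and relatives), none rose and 5 fell in L-Pro/LIF relative to FBS/LIF, among them Sirt1, a deacetylase of p53 (-0.91 ± 0.11), Mdm4, the partner of Mdm2 (-0.87 ± 0.19), and Usp7, which deubiquitinates Mdm2 and p53 (-0.61 ± 0.11). In F/A 5 rose and 7 fell, with Trp73, which encodes the p53 relative p73, at 2.63 ± 0.23, and Hipk2, a kinase of p53, at 2.21 ± 0.57. The F/A replicates of Hipk2 differed, at 8.25 and 2.65 FPKM, against 0.677 and 1.68 FPKM in FBS/LIF. Calls of genes outside the p53 list were not checked with libraries left out. In 2i/LIF 1 rose (Bcl6, 1.82 ± 0.30) and 1 fell (Trp53bp1, -0.82 ± 0.17), and in VitC/LIF edgeR gave no call (1 gene with an unadjusted p under 0.05). L-Pro/LIF relative to VitC/LIF had no rise and 7 falls, and F/A relative to L-Pro/LIF 6 rises and 2 falls. Over all genes 13.7% rose and 10.3% fell in L-Pro/LIF relative to FBS/LIF, and 24.4% and 22.0% in F/A. In 2i/LIF these shares were 12.5% and 17.9%, and in VitC/LIF 0.362% and 0.312%. They were 16.8% and 13.0% for L-Pro/LIF relative to VitC/LIF, and 11.1% and 10.9% for F/A relative to L-Pro/LIF. Of 31 further p53 targets outside the list, 9 rose and 4 fell in L-Pro/LIF, 15 rose and 5 fell in F/A, 3 and 10 in 2i/LIF, and none rose and 1 fell in VitC/LIF, relative to FBS/LIF. Igfbp3, which binds insulin-like growth factors, was called in all 4 media, at 3.19 ± 0.11 in L-Pro/LIF, 3.29 ± 0.11 in F/A, -2.77 ± 0.11 in 2i/LIF and -0.70 ± 0.10 in VitC/LIF. Nupr1 fell to 1.16 CPM in L-Pro/LIF, against 6.63 CPM in FBS/LIF, a log2 fold change of -2.52 ± 0.37.

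Of 22 genes of the BCL2 family and apoptosis machinery, 5 rose and 2 fell in L-Pro/LIF, 9 rose and 2 fell in F/A, 2 and 6 in 2i/LIF, and none either way in VitC/LIF with edgeR (4 with an unadjusted p under 0.05). Bcl2, the death inhibitor, was called higher in L-Pro/LIF and F/A (2.17 ± 0.37 and 2.89 ± 0.38) and lower in 2i/LIF (-3.66 ± 0.52). The 2i/LIF value rests on 4 and 2 estimated counts, against 46 and 46 in FBS/LIF. Casp8, the caspase of the death receptors, was called higher in L-Pro/LIF and F/A (2.33 ± 0.36 and 1.73 ± 0.36). Bcl2l11, the BH3-only protein Bim, fell in 2i/LIF by 3.19 (SE 0.21). Of 18 cell cycle genes that p21 is known to repress through the DREAM complex, edgeR called none in L-Pro/LIF, VitC/LIF or 2i/LIF relative to FBS/LIF, where 0, 0 and 1 had an unadjusted p under 0.05, and 3 rose and 5 fell in F/A. The F/A calls were 16.7% and 27.8% of the 18 genes, beside 24.4% and 22.0% of all genes. The summed level of the 18 genes was 4228 to 4539 CPM in L-Pro/LIF, 3761 to 4010 in F/A, 4167 to 4504 in 2i/LIF, 4060 to 4206 in VitC/LIF and 4253 to 4475 in FBS/LIF, so the L-Pro/LIF range overlapped that of FBS/LIF and the F/A range was below it. Of 5 other inhibitors of cyclin-dependent kinases tested, Cdkn2b rose in L-Pro/LIF (1.51 ± 0.40), and Cdkn1c fell in L-Pro/LIF (-0.63 ± 0.15), F/A (-1.49 ± 0.15), 2i/LIF (-4.97 ± 0.18) and VitC/LIF (-1.03 ± 0.15, adjusted p = 0.0266).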

How the data were processed

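Per the file headers, the 10 libraries of the first set are gene-level mmseq tables in which the authors deposited the natural log of expression in FPKM units, counts of fragments that hit 1 gene alone, and effective lengths. The 4 libraries of the second set are raw counts per gene deposited by the authors. The submitters' processing notes name CASAVA, TopHat2 2.0.13, HTSeq 0.6.1p1, Bowtie, DESeq and mm9 (NCBIM37), without saying which tool made which file, and the strand setting is not given in the sources used here.

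Estimated counts were computed from the deposited natural log values, effective lengths and mapped totals and rounded to whole numbers. They were tested with edgeR 4.0.16 in R 4.3.3 (filterByExpr, TMM scaling, quasi-likelihood F test, 1 term a medium, 5 residual degrees of freedom, common BCV 0.238), with Benjamini-Hochberg adjustment over 16033 genes and a threshold of 0.05. The SE is the size of the log2 fold change divided by the root of F. With 2 libraries a medium, the labels do not say whether they were separate cultures. The second set has no test. Its CPM values are TMM-scaled with a prior count of 2 for log2 fold changes, over genes with at least 1 CPM in any library, and limits are 95% Poisson limits. The tables of the 2 sets were scaled separately. The test was checked on simulated data. Alternatives were RLE scaling, DESeq2 1.42.0, no filter, unique hits, limma 3.58.1 on log2(FPKM + 1), a replicate block and leaving out each library.

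Values are given per library for Trp53, Cdkn1a, Mdm2 and up to 8 called genes a comparison, and for the second set for genes past 2-fold with enough counts; Fas and Gdf15 fall under that count and are given with their counts. The members, and the marker and pathway lists set beside them, were chosen with earlier results of these data known. Symbols were matched through GENCODE vM21, and no gene position in the files' build is given.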

Additional observations from a re-analysis of the deposited data

How the results depend on the processing

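Of the 68 called values of the p53 target genes over 6 comparisons, 39 kept their call in every alternative and with each library left out in turn. DESeq2 kept 65, limma 58, the unfiltered fit 61, unique hits 66 and RLE scaling 67. RLE scaling moved the median of all genes by -0.013 to 0.031 on the log2 scale. With 1 library left out, none of the 68 called values changed sign, and 37 of the 118 values not called took both signs. Among these, Ak1 in F/A relative to L-Pro/LIF was 0.01 with all libraries and ranged from -0.41, where it became a call (without F/A replicate 2, adjusted p = 0.0297), to 0.25 (without F/A replicate 1). Trp53 ranged from -0.85 to 0.26 in 2i/LIF and from -0.15 to 0.98 in F/A, and Zmat3 from -0.53 to 0.34 in L-Pro/LIF, each relative to FBS/LIF and not called. For VitC/LIF relative to FBS/LIF, the count of called p53 targets was 0, against 4 with DESeq2 and 1 each with no filter, unique hits and limma. With 1 library left out, the counts of called p53 targets ranged from 4 to 7 for 2i/LIF relative to FBS/LIF (9 with all libraries) and from 0 to 13 for F/A relative to L-Pro/LIF (7 with all).

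Over all genes, calls with 1 library left out numbered 2002 to 2238 for L-Pro/LIF relative to FBS/LIF (3853 with all libraries), 6 to 12 for VitC/LIF (108), 2932 to 3298 for 2i/LIF (4867), 4345 to 8464 for F/A (7440), 2860 to 3057 for L-Pro/LIF relative to VitC/LIF (4780) and 752 to 6296 for F/A relative to L-Pro/LIF (3529). VitC/LIF had 435 calls with DESeq2, 263 with no filter and 243 with unique hits. With no filter, genes past 2-fold in the second set numbered 8750 for L-Pro day 5, 8071 for F/A day 3 and 9877 for F/A day 5, each over t0 (5231, 4577 and 5515 with it), and 6090 for F/A day 5 over F/A day 3 (3034). The causes were not tested.

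The labels do not say that equal replicate numbers mark a pairing. Deviations of same-numbered libraries correlated at 0.0985 to 0.518 over 10 pairs of media. A fit with the replicate number as a block called 14, 0, 11, 19, 18 and 6 p53 targets, in the order L-Pro/LIF, VitC/LIF, 2i/LIF and F/A over FBS/LIF, L-Pro/LIF over VitC/LIF and F/A over L-Pro/LIF, against 15, 0, 9, 19, 18 and 7 without it, and it lost Sesn1 in L-Pro/LIF over FBS/LIF (adjusted p = 0.064) and Polk in F/A over L-Pro/LIF (adjusted p = 0.0523). Depth limits the values of Fas and Gdf15, with estimated counts of 4 to 32 and 4 to 77 a library, and F/A replicate 1 had the fewest fragments.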

Other observations

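Levels of some p53 targets differed between the 2 sets, whose tables were scaled separately. The median CPM of Cdkn1a was 106.5 in the 4 libraries of the second set and 9.94 in the 10 of the first, a ratio of 10.7. The ratio was 5.12 for Trp53, 4.2 for Tnfrsf10b, 3.39 for Zmat3 and 0.388 for Gdf15, beside a median of 1.44 over the p53 targets.

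The highest ratios of F/A replicate 1 over replicate 2 were those of Tnfrsf10b, Trp53, Gdf15, Zmat3 and Cdkn1a, at 2.26, 2.14, 2.03, 1.91 and 1.79, against a median of 0.871 over the list. In FBS/LIF the same ratio of replicate 1 over replicate 2 was lower for Trp53, Zmat3 and Cdkn1a, at 0.542, 0.548 and 0.635, against a median of 1.06.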
